A study of Mus musculus with 3 samples.

Results

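The members described here are the long non-coding RNAs Miat, Malat1, Neat1, Meg3, Rian, Mirg, H19, Gas5, Snhg11 and Kcnq1ot1. They are 10 of the 24523 genes in the deposited table and 10 of its 2043 genes that RefSeq annotates as lncRNA. The 10 were chosen by symbol, with earlier results of these data known, including those of the knock-out against the control, so the values of that contrast are given as a description. Counts of members past a threshold stand beside the share over all genes, and nothing is read from them. The cells came from mouse small cell lung cancer (SCLC), from the line that the labels number 3. The control library (n = 1) came from cells infected with the lentiviral vector Lenti-Crispr-V2, for which the labels name no guide. The Kdm1a knock-out libraries came from Lenti-Crispr-Kdm1a-sg1 and Lenti-Crispr-Kdm1a-sg2 (n = 2, 1 per guide). All 3 libraries thus carry a CRISPR vector and puromycin selection of at least 1 week, and nothing in the labels says whether the infected cells were pools or single clones. Kdm1a encodes LSD1, a histone demethylase that works with CoREST repressors.

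Long non-coding RNAs are transcribed and usually spliced and polyadenylated like messenger RNAs, but they are not translated into a known protein and many act in the nucleus. Miat, also called Gomafu, is a neuronal nuclear RNA that binds splicing factors. Malat1 and Neat1 are neighbouring genes whose RNAs lie in nuclear speckles and build paraspeckles. Meg3, Rian, Mirg, H19 and Kcnq1ot1 belong to imprinted domains, where only the allele of one parent is expressed, and Gas5 and Snhg11 carry small nucleolar RNAs (snoRNAs) in their introns.

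The libraries held 43424212 counts (control), 44667861 (sg1) and 51066078 (sg2). The targeted gene Kdm1a had 11468, 3950 and 5716 counts, which left 33.1% of the control level with sg1 and 42.7% with sg2. Of 13 neuroendocrine markers all were detected in every library, and their summed level was 5192 CPM in the control library, 3928 CPM for sg1 and 2859 CPM for sg2, with Calca called higher and Chga and Neurod1 lower (CPM are counts per 1 000 000). Markers of fibroblasts went the other way, with a sum of 7.61 CPM in the control against 657 and 816 CPM, 8 of 10 tested and 5 called higher (Vim, Col1a1, Col3a1, Pdgfra and Pdgfrb); Lum was at 0 in all 3 libraries, and Vim and Col1a2 at 0 in the control. Markers of immune cells summed to 4.93, 10.2 and 6.45 CPM and had 4 of 8 at 0 in each library. Endothelial markers summed to 0.53, 10.6 and 24.9 CPM, with the guides nearly all from Kdr, which was called higher (0.207, 9.59 and 24.3 CPM). Pecam1, Tek and Cdh5 had at most 23 counts in any library. Alveolar and club markers summed to 2.95, 57.0 and 23.9 CPM, with Sftpa1 and Sftpb called higher and Cyp2f2 lower (37, 0 and 0 counts). The part of these shifts in the results below was not tested, and fewer cells of a type and less RNA per cell cannot be told apart in bulk libraries.

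The start regions of the tested members at the low end of the comparison and of one member near the control level are shown first, because the results turn on how far these genes differed in the same libraries. Each is 300 bases of RefSeq sequence on GRCm38.p6 (the assembly of mm10), from 250 bases before the annotated start to 50 after it, written 5′ to 3′ on the strand of the gene. Capitals mark matches, on either strand, to any of 8 motifs. These were the E-box CAGCTG, the E-box CAGATG, the E-box CACGTG, the GC box GGGCGG, the CCAAT box, the TATA box TATAAA, and the pieces CAGCACC (left) and GGACAG (right) of the element bound by the repressor REST. Matches of different motifs may overlap and were counted separately.

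Miat, minus strand, chr5:112228899-112229198: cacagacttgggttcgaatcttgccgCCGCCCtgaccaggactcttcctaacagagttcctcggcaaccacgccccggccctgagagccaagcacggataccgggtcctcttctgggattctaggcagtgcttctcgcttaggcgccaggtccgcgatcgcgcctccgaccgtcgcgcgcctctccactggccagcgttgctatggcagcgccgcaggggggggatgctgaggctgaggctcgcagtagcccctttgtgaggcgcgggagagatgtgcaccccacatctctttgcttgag
Snhg11, plus strand, chr2:158375463-158375762: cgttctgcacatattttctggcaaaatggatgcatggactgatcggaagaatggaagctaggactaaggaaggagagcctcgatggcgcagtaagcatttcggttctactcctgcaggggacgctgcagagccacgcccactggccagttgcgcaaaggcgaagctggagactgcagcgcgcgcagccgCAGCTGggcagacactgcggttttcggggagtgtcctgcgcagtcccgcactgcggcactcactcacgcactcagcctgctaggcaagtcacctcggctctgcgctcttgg
Malat1, minus strand, chr19:5802623-5802922: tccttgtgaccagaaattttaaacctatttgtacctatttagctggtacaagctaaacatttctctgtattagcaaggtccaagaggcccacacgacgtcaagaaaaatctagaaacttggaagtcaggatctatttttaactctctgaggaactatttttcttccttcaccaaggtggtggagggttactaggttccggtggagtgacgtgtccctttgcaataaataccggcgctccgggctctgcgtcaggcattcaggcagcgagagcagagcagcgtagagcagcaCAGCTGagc

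The Miat window held 1 match, a GC box on the opposite strand whose leftmost base is 224 bases before the start, and 35.7% of 32851 mouse promoters of the same length hold this motif. The Snhg11 window held 1 CAGCTG, 61 bases before the start, and Malat1 held 1 CAGCTG, 42 bases into the transcript; 16.3% of promoters hold it. Neither REST piece lay in these 3 windows, where 7.14% of promoters hold CAGCACC and 22.2% GGACAG. Among members whose windows are not shown, those of Mirg and Kcnq1ot1 held GGACAG. The GC content was 64.3% for Miat and 60% for Snhg11 against 47% for Malat1 and a median of 52.7% over all promoters. Among the other tested members, the windows of Gas5 had 73.7% and 62% and that of Kcnq1ot1 53.3%. High GC content was thus not particular to Miat and Snhg11. Letters in a window are a description and not a binding site. Of the 10 members, 8 had a promoter entry in RefSeq.

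Miat showed the widest gap between knock-out and control among the members that were tested. Its gene lies on chromosome 5 (112213228 to 112228948, 15721 bases), and the ratio of counts to RPKM implied a counted model of 8761 bases. The control held 25126 counts of Miat, the sg1 library 1217 and the sg2 library 1504, or 579, 27.0 and 29.7 CPM. Per length, the authors' RPKM (reads per kilobase of gene model and per 1 000 000 reads) was 65.5, 3.08 and 3.33. Both guide libraries lay far below the control and close to each other.

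The Miat level with sg1 was 21.5-fold below the control (95% exact counting interval 20.3 to 22.8) and with sg2 19.5-fold below (18.5 to 20.5). The per-guide log2 fold changes were -4.42 and -4.28 (mean -4.35 ± 0.10, SD over the guides, n = 2). These intervals cover counting error only, since no molecular identifiers are named and the control was not replicated. In the authors' deposited table of lower genes Miat stood with sg1 over control at 0.0471 and sg2 over control at 0.0508.

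A test across all genes gave the background for these values. edgeR's quasi-likelihood test of the knock-out against the control called 1 of the 6 members tested lower, which was Miat, and 0 higher, where 1.70% of all 15936 genes tested were called lower and 6.33% higher at an adjusted p under 0.05, 8.03% in all. At an unadjusted p under 0.05 the test had 2 members lower, Miat and Snhg11, and 1 higher, Neat1. DESeq2 called Miat lower and Neat1 higher, and limma-voom called Miat alone. Since the members were chosen with this contrast known, nothing is read from these counts. Rian, Mirg, H19 and Meg3 had too few counts to be tested.

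Miat was among the more abundant genes called lower. Of the 271 genes called lower it had the 4th highest control level in CPM, after Xist, Obsl1 and Elavl3. In the control 135 of the tested genes had at least as many counts as Miat, itself included, and 1 of these, Miat, was at least 10-fold lower with both guides. By counts it ranked 135 (control), 7607 (sg1) and 7267 (sg2) in the whole table. A further 18 tested genes lay at or below Miat in both per-guide log2 fold changes, all of them less abundant in the control.

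**Figure D1:**
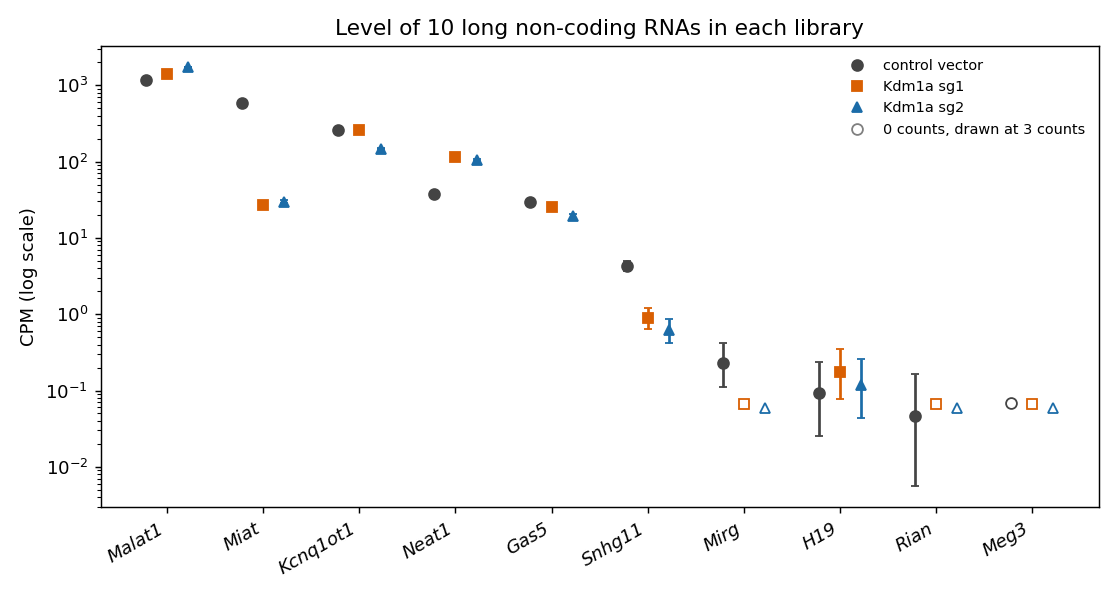
Level of each long non-coding RNA (x axis, ordered by control level) in CPM on a log axis, with 95% exact Poisson intervals of the counts; filled symbols are single libraries and open symbols libraries with 0 counts, drawn at the limit of 3 counts. Miat drops from 579 CPM to 27.0 and 29.7 CPM, and Neat1 stands at 37.2 CPM in the control against 113.6 and 103.7 CPM. Levels are not scaled to length here, so genes are compared between libraries only.

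The genes most like Miat in their per-guide fold changes were found by distance over the 2 guide values, which share the control library, among genes with a mean of at least 10 CPM. Other members and genes named Gm with digits or with a name ending in Rik were left out. The nearest was Itga4, an integrin subunit on chromosome 2, with 5917 control counts against 278 (sg1) and 359 (sg2) (log2 -4.46 and -4.26). Next came Cdh23, a cadherin of hair cell tip links, with 1320, 86 and 75 counts, and Lrrn1, a leucine-rich repeat membrane protein, with 1441, 51 and 99 counts. Hepacam2, an immunoglobulin-type membrane protein, had 3545, 298 and 207 counts, and Hecw1, a ubiquitin ligase, had 1786, 132 and 72. The 5 genes lay on chromosomes 2, 10, 6, 6 and 13, none of them on chromosome 5 with Miat. Control levels of these 5 ran from 30.4 to 136 CPM, all below that of Miat.

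The genes next to Miat gave few reads. On one side 1700028D13Rik, 3226 bases away, had 2 counts in the control alone, and E130006D01Rik and C130026L21Rik had 0 in all 3 libraries. On the other side the lens crystallin genes Cryba4 and Crybb1 had at most 2 counts in any library. Tpst2, a tyrosylprotein sulfotransferase 47734 bases away, had 1486, 1162 and 2039 counts and was not called (log2 -0.41 with sg1 and 0.23 with sg2). The values of Tpst2 were thus below the control with one guide and above it with the other, unlike those of Miat.

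Proteins that bind Miat or share its nuclear body were compared next, 6 of a list of 7 with a row in the table. Of these 6, edgeR's quasi-likelihood test called 0 in either direction; at an unadjusted p under 0.05 and with DESeq2 1 was lower, Celf3, and with limma-voom 0. Celf3, a neuronal splicing regulator, had 9065, 4157 and 2214 counts, or 209, 92.1 and 43.8 CPM. Sf1, the factor that recognises the branch point and binds Miat repeats, had 23756, 21710 and 25659 counts (log2 -0.19 and -0.11). Srsf1, a splicing activator, had 41988, 37703 and 35608 counts (log2 -0.21 and -0.46). Medians over the list were -0.19 (sg1) and -0.23 (sg2) on the log2 scale, against 0.02 and 0.05 over all genes tested.

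**Figure D2:**
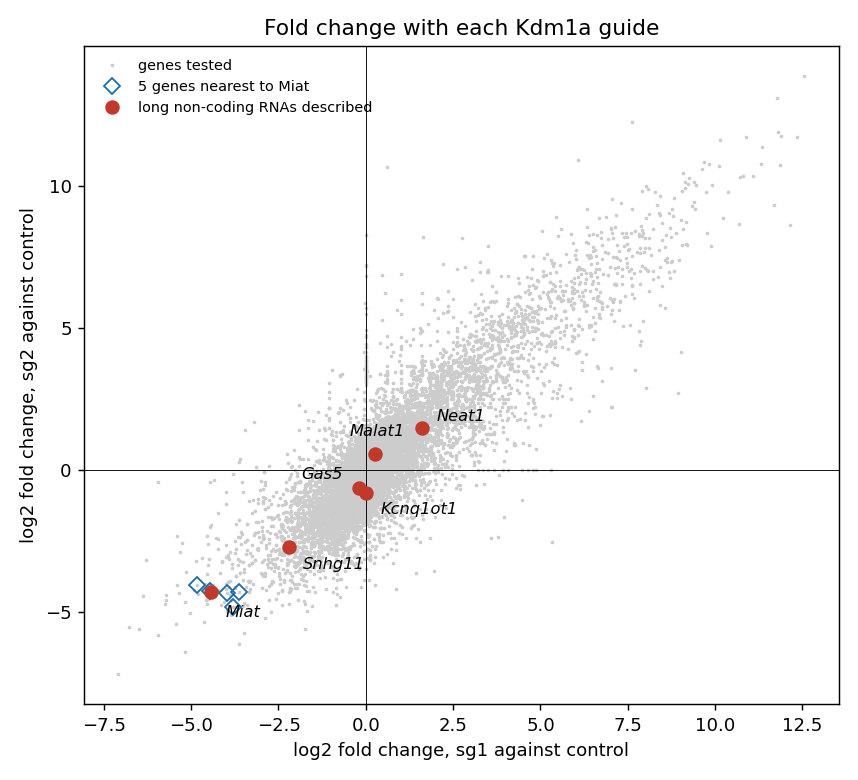
Log2 fold change of each tested gene with sg1 (x axis) and with sg2 (y axis) over the shared control library; grey points are the 15936 genes tested, red points the 6 members tested and open diamonds the 5 genes nearest to Miat. Miat lies at -4.42 and -4.28 and Neat1 at 1.61 and 1.48, while Kcnq1ot1 lies at 0.01 and -0.80.

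Neat1 and Malat1 are adjacent on chromosome 19, with Malat1 at 5795690 to 5802672 and Neat1 at 5824708 to 5845480, 22036 bases apart. Neat1, a gene of paraspeckle RNA, was counted 1613 times in the control library, 5130 times for sg1 and 5247 times for sg2. That is 11.6, 35.8 and 32.0 RPKM. Both guide libraries lay above the control, 3.06-fold with sg1 (counting interval 2.89 to 3.23) and 2.79-fold with sg2 (2.64 to 2.95).

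The mean Neat1 log2 fold change was 1.54 ± 0.09 (SD, n = 2). Neat1 is in the authors' deposited table of higher genes, which holds 7.47% of the genes of the full table, as Miat is in that of lower genes, which holds 8.78%; the other 8 members are in neither. The cut-offs differ, as ratios to the control start at 1.5 in the higher list and reach 0.75 in the lower. Listed genes also had an RPKM of at least 1 with both guides (higher list) or in the control (lower list). The counted Neat1 model had an implied length of 3177 bases, while the gene spans 20773, so the value covers only part of the gene. It is no separate measure of RNA that spans the whole gene.

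Malat1 was the most abundant member per length in every library. Its counts were 51225 (control), 63539 (sg1) and 87375 (sg2), and its levels 167.5, 201.9 and 242.5 RPKM. Both guides lay above the control by more than counting error, 1.19-fold with sg1 (1.18 to 1.21) and 1.46-fold with sg2 (1.45 to 1.48), which is less than the 1.5-fold used here as a size of note, and Malat1 was not called. The neighbours differed among themselves. Frmd8, which stabilises a protease complex, had 1308, 1252 and 2218 counts and was not called. Ltbp3, which binds latent TGF-beta, was called higher with 1664, 5715 and 6741 counts, and Tigd3 had 995, 538 and 454 without a call.

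Proteins of these nuclear bodies were compared as 2 lists. Of 32 paraspeckle proteins, edgeR's quasi-likelihood test called 0, with 0 at an unadjusted p under 0.05 and 0 with DESeq2 or limma-voom. Their medians were -0.15 (sg1) and -0.23 (sg2) on the log2 scale. The 2 with the widest gaps were Zc3h6, a zinc finger protein (928, 577 and 309 counts), and Ss18l1, a chromatin factor of neurons (905, 639 and 423 counts). Of 16 nuclear speckle proteins and Malat1 partners, 0 were likewise called, with 0 at an unadjusted p under 0.05 and 0 with DESeq2 or limma-voom. Srrm2, a core protein of speckles, had 65114, 58924 and 40588 counts.

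The snoRNA host genes release their small RNAs from introns, and the spliced host RNA is often short-lived. Snhg11, a host gene with high levels in brain, lies on chromosome 2 (158375713 to 158386474). Counts were 185 (control), 40 (sg1) and 31 (sg2), or 0.720, 0.151 and 0.102 RPKM. Both guide libraries lay below the control, 4.81-fold with sg1 (counting interval 3.40 to 6.96) and 6.96-fold with sg2 (4.74 to 10.5). It was not called at these counts, and it is below the RPKM of 1 that every control value of the authors' list of lower genes reaches. With Miat, Snhg11 was 1 of 2 tested members at least 1.5-fold lower with both guides, where 12.7% of all tested genes were; Neat1 was the 1 member at least 1.5-fold higher with both, where 18.3% of genes were.

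The gene on one side of Snhg11, Snhg17, also a snoRNA host, had 2891 control counts, 3212 for sg1 and 2554 for sg2, without a call. Lbp, which encodes a secreted protein that binds bacterial lipopolysaccharide, lies 42861 bases from Snhg11 and was called higher, with 0, 1025 and 1941 counts. Ralgapb, a subunit of a GTPase activator on the other side, had 6083, 7828 and 4794 counts. None of these 3 neighbours lay below the control with both guides, as Snhg11 did. Of further neighbours with few counts, Adig (4, 1 and 0 counts) did, while Bpi (8, 9 and 0) and Arhgap40 (2, 3 and 19) did not.

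Gas5, named for its rise in growth-arrested cells, was counted 1278 times in the control library, 1156 times for sg1 and 969 times for sg2, or 29.5, 25.6 and 19.2 CPM. It was 1.15-fold lower with sg1 (counting interval 1.06 to 1.25) and 1.54-fold lower with sg2 (1.41 to 1.67), and it was not called. The Gas5 gene (chromosome 1, 161034601 to 161038539) overlaps Zbtb37 in the annotation, and whether counting used strand is not given, so reads of the overlap cannot be assigned. Zbtb37, a zinc finger factor, had 301, 174 and 58 counts. Of its snoRNAs 1 had a row, Snord47, with 25, 22 and 38 counts.

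Of 18 snoRNA host genes tested, Gas5 and Snhg11 included, edgeR's quasi-likelihood test called 0 in either direction, with 0 higher and 2 lower, Snhg11 and Snhg14, at an unadjusted p under 0.05 and 0 with DESeq2 or limma-voom. In 12 of the 18 both guides lay above the control and in 4 both lay below, while over all genes tested 6568 of 15936 lay above and 6030 below. Medians over the list were 0.42 (sg1) and 0.20 (sg2) on the log2 scale. Gas5 and Snhg11 were among the 4 below. Zfas1, a host gene named for its position beside Znfx1, had 758, 1633 and 1242 counts, and Snhg14, the long host transcript of the Prader-Willi and Angelman region, 412, 213 and 114. Decay and growth factors tied to Gas5, such as the nonsense-mediated decay helicase Upf1, were 13 in number; edgeR's quasi-likelihood test called 0, with 0 at an unadjusted p under 0.05 and 0 with DESeq2 or limma-voom. In that list Smg1, a kinase of the decay pathway, had 12559, 10109 and 4852 counts and Smg6, its endonuclease, 3590, 3096 and 2221.

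The imprinted RNAs of the Dlk1-Dio3 domain on chromosome 12 were near the detection limit in all 3 libraries. Meg3 (109540996 to 109571729) had 0 counts in every library, which allows up to 3 counts or 0.0692 CPM in the control. Rian (109603945 to 109661716), a snoRNA host, had 2, 0 and 0 counts. Mirg (109734981 to 109749458), a microRNA host, had 10, 0 and 0 counts, or 0.231 CPM in the control. With 0 counts taken at the limit of 3 per library, the control level of Mirg was 3.47-fold that limit for sg1 and 3.89-fold for sg2. These ratios leave out the counting error of the 10 control counts (interval 0.111 to 0.424 CPM). Mirg fell below the count needed for the test.

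The other genes of that domain were also low. Dlk1, a paternally expressed Notch-like membrane protein, had 4 control counts, 0 for sg1 and 21 for sg2, Rtl1 1, 0 and 0, Dio3, a deiodinase, 0, 0 and 6, and Dio3os 0 in all 3. Begain and Wdr25, which lie at the edge, had 247 and 363 control counts, 249 each for sg1, and 181 and 324 for sg2. Of the 3 genes of the list that were tested, edgeR's quasi-likelihood test called 0, with 0 at an unadjusted p under 0.05 and 0 with DESeq2 or limma-voom. Among 58 microRNA and 7 snoRNA rows between Dlk1 and Dio3, 1 row had a count, Mir654, with 1 in the control. Such rows count reads over precursors and are no measure of the mature microRNAs.

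A selection of the mature microRNAs that RefSeq (GRCm38.p6) places inside Meg3, Mirg and H19 is shown, as products of hosts whose counts were at or near 0. Meg3 holds 3, Rian 6, Mirg 19 and H19 2 mature sequences. Capitals mark the seed, bases 2 to 8, and mmu-miR-453 and mmu-miR-496a-5p of Mirg are the 1 pair with a shared seed; the 7 shown are this pair, both arms of miR-770 and miR-675, and miR-410-3p.

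mmu-miR-770-5p, in Meg3: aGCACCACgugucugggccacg
mmu-miR-770-3p, in Meg3: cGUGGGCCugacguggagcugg
mmu-miR-453, in Mirg: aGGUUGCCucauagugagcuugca
mmu-miR-496a-5p, in Mirg: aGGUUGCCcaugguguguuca
mmu-miR-410-3p, in Mirg: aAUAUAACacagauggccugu
mmu-miR-675-5p, in H19: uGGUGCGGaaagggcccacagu
mmu-miR-675-3p, in H19: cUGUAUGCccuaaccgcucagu

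H19, the maternally expressed RNA that hosts miR-675, lies on chromosome 7 (142575530 to 142578146). Counts were 4 (control), 8 (sg1) and 6 (sg2), or 0.0349, 0.0679 and 0.0445 RPKM. The ratio to the control was 1.92 with sg1 (counting interval 0.515 to 8.72) and 1.29 with sg2 (0.305 to 6.20), so no difference was detectable at this depth. Igf2, the paternally expressed growth factor 72622 bases away, was abundant in the same libraries with 14849, 25902 and 47864 counts, or 80.0, 135.7 and 218.9 RPKM. Igf2 was not called. Igf2os, which overlaps Igf2 in the annotation, had 1936, 1601 and 1502 counts, and without the strand setting their reads cannot be told apart.

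Kcnq1ot1, the paternally expressed antisense RNA that silences neighbours of Kcnq1, lies on the same chromosome (143213111 to 143296547). The control held 11129 counts, the sg1 library 11703 and the sg2 library 7456, or 3.05, 3.11 and 1.73 RPKM. The sg1 library was at the control level, with a ratio of 1.01 (counting interval 0.984 to 1.04), and the sg2 library was 1.74-fold lower (1.69 to 1.79). Kcnq1ot1 was not called. Kcnq1, the potassium channel gene it overlaps, had 298, 437 and 167 counts (log2 0.49 and -1.05) and was not called, and reads of the overlap cannot be assigned without the strand setting.

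Of the 16 genes tested in the Igf2-H19 and Kcnq1 domain, 3 were called higher and 0 lower; DESeq2 called 3 higher and limma-voom 1, and at an unadjusted p under 0.05 there were 4 higher and 0 lower. Phlda2, a maternally expressed growth inhibitor of the placenta, had 2, 116 and 383 counts, a pooled ratio of 113 (counting interval 31.1 to 936). The decoy receptor genes Tnfrsf22 and Tnfrsf23 had 1, 265 and 307 and 0, 129 and 238 counts, and Tnfrsf23 was at least 54.7-fold higher over the 3-count limit of the control. Cdkn1c, a cell cycle inhibitor and known target of Kcnq1ot1 silencing, had 2585, 2588 and 3459 counts and was not called (log2 -0.06 and 0.20). The 3 genes called had at most 2 counts in the control. Kcnq1ot1 was tested and not called, and H19 had too few counts to be tested.

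**Figure D3:**
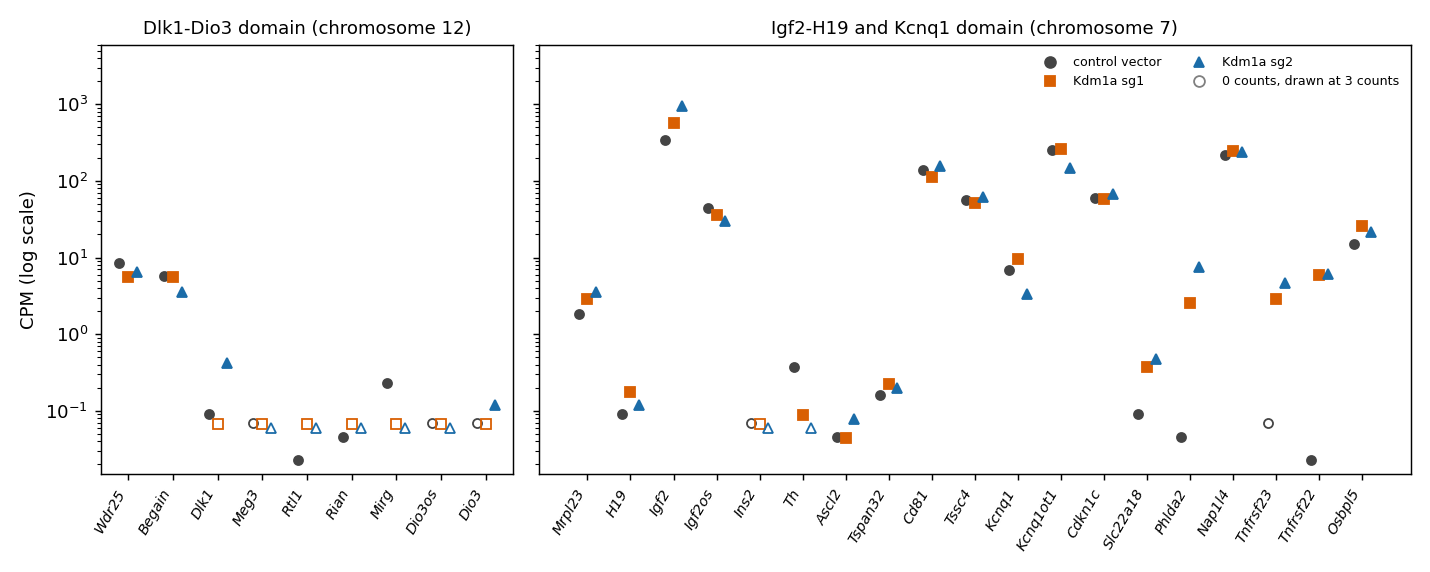
Level in CPM (log axis) of the genes of 2 imprinted domains in each library; filled symbols are single libraries and open symbols 0 counts drawn at the limit of 3 counts. Meg3, Rian, Mirg and H19 lie at or near that limit, while Igf2 reaches 342 to 946 CPM.

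Other imprinted genes and regulators gave a mixed picture. Of 24 other imprinted genes tested, 1 was called higher and 2 lower; DESeq2 called 1 higher and 3 lower, and limma-voom 1 and 2. Plagl1, a zinc finger factor, was called higher with 48, 1016 and 2820 counts. Magel2, of the Prader-Willi region, fell 9.65-fold (462, 72 and 31 counts), and Snrpn, whose transcript overlaps that of Snurf, had 66, 0 and 1 counts. Of 18 chromatin and imprinting regulators 1 was called, Zfp57, which protects imprints and had 92, 436 and 876 counts, 6.36-fold higher. DESeq2 called Zfp57 higher and the targeted Kdm1a lower in this list, and limma-voom called 0.

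The order of the members per length changed between libraries. In the control it ran Malat1, Miat, Neat1, Gas5, Kcnq1ot1, Snhg11, Mirg, H19 and Rian, with the counting intervals of Neat1 and Gas5 overlapping (11.6 and 11.4 RPKM), as did those of Mirg, H19 and Rian with their neighbours. With sg1 Neat1 was next to Malat1 and Miat lay with Kcnq1ot1, at 3.08 and 3.11 RPKM with overlapping intervals. With sg2 Miat lay above Kcnq1ot1, at 3.33 against 1.73 RPKM. The RPKM of Miat was 39.1% (control), 1.53% (sg1) and 1.37% (sg2) of that of Malat1.

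The summed level of the members was 2088 CPM in the control library, 1834 CPM for sg1 and 2028 CPM for sg2. Miat was lower by 551 CPM on average, while Malat1 stood at 1181, 1407 and 1727 CPM. The members' counts were 0.209% (control), 0.185% (sg1) and 0.201% (sg2) of all counts. Within this sum the share of Miat was 27.7% in the control and 1.47% with each guide. The share of Malat1 was 56.6%, 76.7% and 85.2%, and that of Neat1 1.78%, 6.20% and 5.11%.

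The 2 guide libraries were also set against each other. Of the 6 tested members 1, Kcnq1ot1, was at least 1.5-fold apart between sg1 and sg2, where 38.6% of all tested genes were. Its level with sg2 was 1.76-fold below that with sg1 (counting interval 1.71 to 1.81), and its counted model of 83443 bases was the 2nd longest of all genes tested. The 1594 longest genes, of 6160 bases or more, had a median log2 difference of -0.48 between sg2 and sg1, against -0.03 over all tested genes; the part of this in Kcnq1ot1 was not tested. Miat and Malat1, with models of 8761 and 6982 bases, are among these longest genes, and their differences were 0.14 and 0.30. Miat and Neat1 differed least, with log2 differences of 0.14 and -0.13, and 82.8% and 83.9% of tested genes lay further apart. With 1 library per guide these gaps have no replicate check.

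Genes that RefSeq annotates as lncRNA were described as a whole to place the members. Of 2043 such rows 800 were tested, and 10 were called higher and 8 lower, Miat included, which is 1.25% and 1.0% against 6.33% and 1.70% of all genes tested. Many of the tested lncRNA genes had low levels, where the test has less power, so nothing is read from these shares. DESeq2 called 15 lncRNA genes higher and 7 lower, and limma-voom 1 higher and 6 lower. All lncRNA rows took 0.908% (control), 0.692% (sg1) and 0.632% (sg2) of counts, and the medians of those tested were -0.07 (sg1) and -0.40 (sg2) on the log2 scale. Xist alone held 115858 of the 394336 lncRNA counts in the control, 42575 of 309044 with sg1 and 37534 of 322977 with sg2. The share of all lncRNA rows thus depends strongly on this gene and is no measure of the class as a whole. Miat alone made 6.37% of the lncRNA counts in the control library, 0.394% for sg1 and 0.466% for sg2. Among the 8 called lower it had the lowest mean log2 fold change and the 2nd highest control count, after Xist.

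Other well-known lncRNAs were read from a list of 73, of which 47 were tested, 2 called higher (4.26%) and 1 lower (2.13%), against 6.33% and 1.70% of all genes tested. DESeq2 made the same 3 calls, and limma-voom called Fendrr and Xist but not Bvht. Xist, the RNA that coats the inactive X chromosome, fell 3.17-fold, from 115858 control counts to 42575 (sg1) and 37534 (sg2) (log2 -1.50 and -1.85). Fendrr, a lncRNA of lateral mesoderm, had 0, 354 and 469 counts and was at least 124-fold higher (8.56 ± 1.01 CPM, SD, n = 2). Bvht, a lncRNA of cardiac mesoderm, had 1, 63 and 98 counts, a pooled ratio of 73.0 (counting interval 12.9 to 2899). Fendrr and Bvht were thus almost absent in the control, where the fibroblast markers summed to 7.61 CPM, and the part of such cells in these values was not tested. Among those not called, Tug1 had 11536, 11845 and 9338 counts, and Firre, an X-linked nuclear RNA, 3674, 1837 and 1646.

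**Figure D4:**
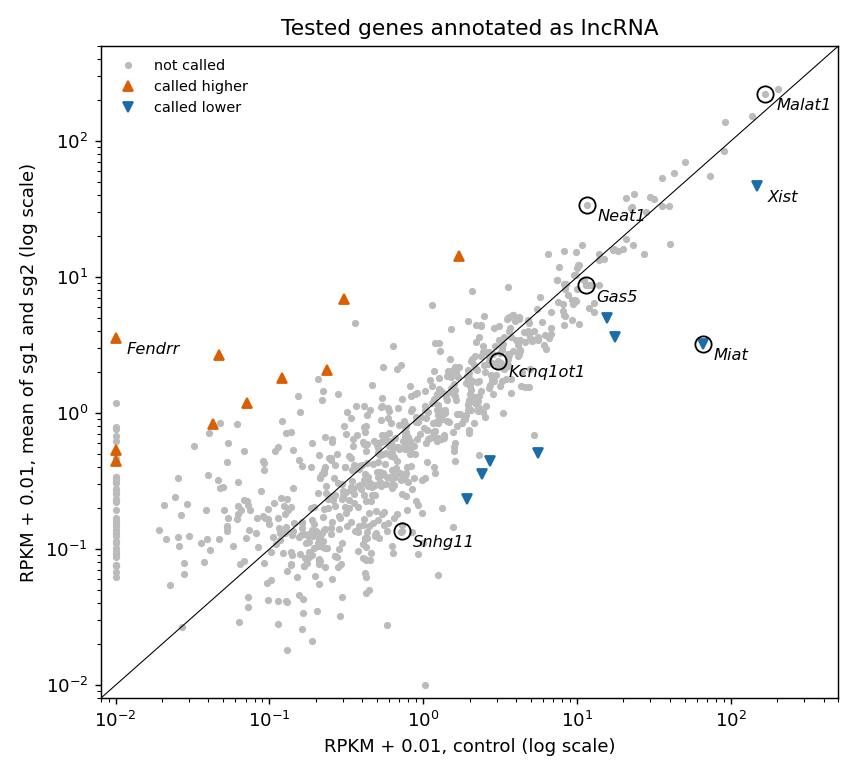
RPKM + 0.01 in the control (x axis) against the mean of both guides (y axis), on log axes, for the 800 tested genes annotated as lncRNA; triangles are the 10 called higher and 8 called lower, circles mark the 6 members tested, and the line marks equal levels. Miat lies below the line, at 65.5 RPKM in the control and a mean of 3.20 RPKM with the guides.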

How the data were processed

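RNA of 3 libraries was analysed from the table that the authors deposited. Per the file headers it gives counts per gene and library beside RPKM values (per gene length and depth). The tools named per the submitters' processing notes are TopHat2 2.0.12, Bowtie2 2.2.3 and HTSeq 0.6.1, on build mm10. Strand and multi-mapping settings were not given in the sources used here. The deposited lists of lower and higher genes were read too, the first with the authors' fold change of each guide as a ratio of RPKM. The counts were tested with edgeR 4.0.16 in R 4.3.3 (TMM, filterByExpr, quasi-likelihood F test, Benjamini-Hochberg adjustment over 15936 genes). The spread came from the 2 guides with 1 residual degree of freedom, and the single control is taken to vary as the guides do. P-values thus set the gap between knock-out and control against that spread, which may be technical. For each gene the spread was moderated by that of all genes, with 11.5 prior degrees of freedom. For each guide, log2 fold changes carried a prior count of 2, and intervals at 95% are exact and cover counting error. Up to 3 counts were taken as the limit that 0 counts allow.

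Gene models were scaled from counts over RPKM on Malat1 and Kcnq1ot1, whose RNAs are unspliced. Positions and lncRNA annotation come from RefSeq on GRCm38.p6, matched by Entrez identifier for 24418 genes. Members, lists and the naming rule were chosen with earlier results of these data known. The rule names the members and Kdm1a, the 5 genes nearest to Miat, the neighbours of Miat and, per list, up to 4 called genes or the 2 widest gaps; further genes in the text, the RefSeq lncRNA class and the neighbours of other members were chosen after values were seen. Alternatives were DESeq2 1.42.0 and upper-quartile factors, library totals, no count filter or a mean count of 50, the DESeq2 Wald test, limma-voom (limma 3.58.1), log2(RPKM + 1) and log2(RPKM + 0.1), prior counts of 0.5 and 10, and each guide left out. The edgeR step was tested on simulated data. Some genes that the rule names or that neighbour members are not reported here.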

Additional observations from a re-analysis of the deposited data

How the results depend on the processing

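The number of genes called depended on the analysis: 513 instead of 1008 were higher with limma-voom, and 511 or 180 instead of 271 were lower with no count filter or with a mean count of at least 50. Miat was called lower in all 7 analyses. Without the filter 2 members were called lower, Snhg11 and Miat, and 1 higher, Neat1; the DESeq2 Wald test also called 1 higher, Neat1. The cause was not tested. The mean log2 fold change of Miat ran from -4.37 to -3.98 over the other scalings, prior counts and measures, and those of Malat1, Neat1 and Gas5 from 0.39 to 0.42, 1.47 to 1.56 and -0.42 to -0.37. For Snhg11 the range was -2.52 to -0.61, where the added constant of log2(RPKM + 1) exceeds its level, and for Mirg, at 10 counts or fewer, -4.48 to -0.23. Kcnq1ot1 was at -0.39 on average and at 0.01 without sg2. Median shifts over all genes stayed between 0 and 0.07 in each scaling. No paired analysis was possible because the control has 1 library and its number pairs with no guide. With either guide left out, 1 library stands against 1, and values have no test.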
